A study of Mus musculus with 2 samples.

Results

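Transcripts of 6 genes tied to the outer zone of the adrenal cortex were examined: the potassium channel genes Kcnk3 and Kcnk9, the angiotensin receptor genes Agtr1a and Agtr1b, the endocytic adaptor gene Dab2 and the calcium sensor gene Vsnl1. They were taken by gene symbol, with every transcript model that the deposited tables assign to them, and make up 6 of 18177 annotated genes with reads. Their models numbered 68 of 112323 in replicate 1 and 64 of 112820 in replicate 2. The material was adrenal gland tissue of male B6CASTF1/J mice, an F1 hybrid strain, at 14 days of age, with no treatment named, and 2 libraries labelled as biological replicates 1 and 2 of 1 group. The labels name a set of 3 males and give both libraries the same donor identifier, so separate animals cannot be assumed. With no second condition, every test compares these libraries and covers counting error only.

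The zona glomerulosa is the outermost layer of the cortex and the source of aldosterone, the hormone that makes the kidney retain sodium and excrete potassium. Its cells rest at a negative voltage held by background potassium channels, mainly those built from Kcnk3 and Kcnk9 subunits. Angiotensin II binds the receptor made from Agtr1a or Agtr1b, which closes these channels, raises cell calcium and turns on aldosterone synthase, the product of Cyp11b2.

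In long-read RNA-seq a read follows 1 copied RNA molecule and can span it whole, but reads without molecular identifiers need not be independent molecules. Replicate 1 held 981697 reads and replicate 2 held 1003061 reads, of which 1.73% and 1.80% came from synthetic spike-in RNAs. Levels are given in CPM, reads per 1000000 reads without spike-ins, and a count of 0 allows up to 3.11 CPM in replicate 1 or 3.05 CPM in replicate 2 (3 reads). The tissue label fitted the markers, since all 6 adrenal cortex genes listed had reads, with sums of 33605 CPM (replicate 1) and 34726 CPM (replicate 2). The 8 hepatocyte markers summed to 754 CPM (replicate 1) and 15658 CPM (replicate 2). The 3 brown fat markers summed to 9450 and 9373 CPM, and Ucp1 alone stood at 2007 ± 82.2 CPM (SD over n = 2 libraries, here and wherever ± appears). The part of brown fat in the values was not tested. The part of liver RNA in the values of the 6 genes was not tested beyond leaving these genes and Apoe out of the totals. In whole tissue, fewer cells of a type and less RNA per cell cannot be told apart.

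Kcnk3 dominated the set in this whole tissue, though the part of its reads from brown fat or any other cells was not tested. It had 1597 reads (1655 CPM) in replicate 1 and 1582 reads (1606 CPM) in replicate 2, a mean of 1631 ± 34.9 CPM (SD over n = 2 libraries), the 48th highest of 18177 genes. Dab2 had 305 reads (316 CPM) in replicate 1 and 212 reads (215 CPM) in replicate 2, or 266 ± 71.4 CPM. Agtr1a had 120 reads (124 CPM) and 97 reads (98.5 CPM), or 111 ± 18.3 CPM. Kcnk3 thus took 77.2% of the reads of the 6 genes in replicate 1 and 81.5% in replicate 2, and the order Kcnk3, Dab2, Agtr1a was the same in each library, with counting intervals that did not overlap. Vsnl1 had 23 reads (23.8 CPM) and 22 reads (22.3 CPM), or 23.1 ± 1.07 CPM. Kcnk9 had 14 reads in each library, 14.5 and 14.2 CPM, or 14.4 ± 0.211 CPM. Agtr1b had 10 reads (10.4 CPM) and 13 reads (13.2 CPM), or 11.8 ± 2.00 CPM. The 95% Poisson intervals of Vsnl1, Kcnk9 and Agtr1b overlapped in both libraries, so their order was not resolved at this depth.

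Because a read follows 1 copied molecule, the levels above were not scaled to length. As a check of order only, CPM per kb of the longest annotated transcript was 428 for Kcnk3, 57.0 for Dab2 and 50.7 for Agtr1a. It was 12.1 for Vsnl1, 5.49 for Agtr1b and 1.17 for Kcnk9. By this division alone Kcnk9, with a transcript of 12300 bases, moved from the fifth to the sixth place, which says nothing about its number of molecules. Kcnk3 reads outnumbered Kcnk9 reads by 114 times in replicate 1 and 113 times in replicate 2 after scaling to library size. Agtr1a exceeded Agtr1b by 12.0 times in replicate 1 and 7.46 times in replicate 2.

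**Figure D1:**
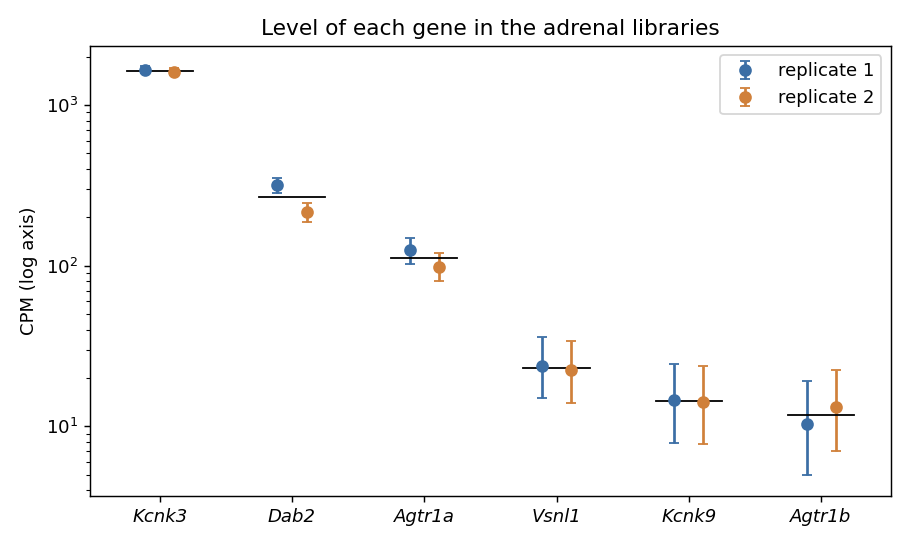
CPM of the 6 genes on a log axis, 1 point per library with its 95% Poisson interval (counting error only) and a black bar at the mean of both. Kcnk3 lies near 1631 CPM, while Vsnl1, Kcnk9 and Agtr1b have overlapping intervals between 4.97 and 35.8 CPM.

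Between the libraries, 1 of the 6 genes passed the threshold of 0.05 in the exact binomial test with Benjamini-Hochberg adjustment over 11094 genes. Of all genes tested, 9.17% passed it, and 4.81% did so with the higher level in replicate 1. The gene was Dab2, whose level in replicate 2 was 0.681 of that in replicate 1 (95% interval 0.569 to 0.814, adjusted p = 4.54e-04, exact binomial test). Over 9 other settings its log2 ratio stayed between -0.59 and -0.40 and its adjusted p between 3.11e-04 and 0.0292 (exact binomial test). Settings that changed only the minimum of reads or the reads of Agtr1b could not move that ratio, which was -0.55 in each. Dab2 is also made by macrophages and endothelium, of whose markers Lyz2 and Tie1 passed the test, each lower in replicate 2. C1qb (29.0 CPM in replicate 1 and 32.5 CPM in replicate 2) and Cdh5 (14.5 and 17.3 CPM) were higher in replicate 2 and did not pass. Pecam1 (54.9 and 29.4 CPM), Kdr (42.5 and 25.4 CPM), Csf1r (24.9 and 10.2 CPM) and C1qa (44.6 and 32.5 CPM) were lower in replicate 2. They did not pass either. Cd68 and Adgre1 had too few reads for the test. The 6 macrophage markers summed to 285 CPM (replicate 1) and 139 CPM (replicate 2), ranging from Adgre1 (2.07 and 1.02 CPM) to Lyz2 (180 and 58.9 CPM), with none at 0. The 4 endothelial markers summed to 218 and 129 CPM, again with none at 0. The zona glomerulosa markers, with Dab2 itself, Agtr1a, Agtr1b and Vsnl1 among them, summed to 1074 CPM and 807 CPM. Of these markers only Dab2 and Cyp11b2 passed, both lower in replicate 2, and only Agtr1b and Rspo3 were higher there. The zona fasciculata markers summed to 9311 and 6858 CPM, with Mrap the only one of them higher in replicate 2. The adrenal cortex markers summed to 33605 and 34726 CPM, with calls in both directions. Cyp11a1 (15608 CPM in replicate 1 and 18160 CPM in replicate 2) passed with the higher level in replicate 2. Cyp21a1 (7736 and 6662 CPM) and Star (5006 and 4688 CPM) passed, each lower in replicate 2, and the rest did not pass. The part of these cell types in the Dab2 difference was not tested.

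The other 5 genes did not pass. The ratio of replicate 2 over replicate 1 was 0.970 for Kcnk3 (0.904 to 1.04, adjusted p = 0.743, exact binomial test), and 0.792 for Agtr1a (0.599 to 1.04, adjusted p = 0.353, exact binomial test). It was 0.937 for Vsnl1 (0.498 to 1.76), 0.979 for Kcnk9 (0.433 to 2.22) and 1.27 for Agtr1b (0.516 to 3.24). For Kcnk9, multi-exon models alone, with 8 and 2 reads, gave a log2 ratio of -1.73, against -0.03 for all its models (adjusted p = 0.399, exact binomial test). The last 3 intervals of all models are wide enough to hold differences of more than 1.5 times in either direction. The median log2 ratio of the 6 genes was -0.07, against -0.15 over all genes tested. The signs for Kcnk3, Kcnk9 and Vsnl1 turned with TMM scaling, which moved the median of all genes to 0.0051, and none of the 3 passed with it.

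Kcnk3 encodes a subunit of the acid-sensitive background potassium channels and lies on chromosome 5 from 30588170 to 30625271 on the plus strand (mm10, GENCODE M21, as for all coordinates). Its annotated coding transcript, Kcnk3-201, has 2 exons and 3811 bases. It held 1074 reads in replicate 1 and 934 reads in replicate 2, and Kcnk3-202, a noncoding annotated transcript, held none. Kcnk9 encodes the closest relative of this subunit and lies on chromosome 15 from 72501089 to 72546340 on the minus strand. In both genes the first exon carries 283 coding bases, of which 70.3% are identical without gaps. The longest identical run there is 20 bases. The first 90 coding bases in the GENCODE M21 transcripts are shown because they display this likeness, with the 15 differing bases in capitals:
Kcnk3: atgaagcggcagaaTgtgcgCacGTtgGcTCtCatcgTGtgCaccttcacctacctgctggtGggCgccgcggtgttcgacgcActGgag
Kcnk9: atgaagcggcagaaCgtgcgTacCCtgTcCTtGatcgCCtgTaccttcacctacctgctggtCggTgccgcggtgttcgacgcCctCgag
These bases lie at chr5:30588317-30588406 on the plus strand for Kcnk3 and at chr15:72546190-72546279 on the minus strand for Kcnk9.

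Spliced Kcnk3 reads were nearly uniform. All 1102 multi-exon reads in replicate 1 and 968 of 969 in replicate 2 contained the splice site of the annotated first exon. The intron of Kcnk3-201 was removed as annotated in 97.5% of them in replicate 1 (95% Wilson interval 96.4 to 98.2) and 96.5% in replicate 2 (95.1 to 97.5). An unannotated exon of 223 bases within the intron, chr5:30613469-30613691, followed by the annotated exon 2, occurred in 6 and 10 reads. The same exon starting 3 bases later, at 30613472, occurred in 5 and 4 such reads. Exon 1 was joined to an exon of 171 bases, chr5:30621367-30621537, in 3 and 9 reads. This exon is the first exon of Kcnk3-202 with a start 6 bases earlier, and these reads removed the annotated intron of that transcript. A last exon starting at 30615054 within the intron followed exon 1 directly in 2 reads in replicate 1 and 1 read in replicate 2, and followed an exon ending at 30613691 in 1 and 4 reads. The inner exon from 30613469 or 30613472 was the most used of these, in 12 reads (1.09% of spliced reads) and 18 reads (1.86%) in all with that end.

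A different picture appeared in single-exon reads, which made up 31.0% of Kcnk3 reads in replicate 1 (28.8 to 33.3) and 38.7% in replicate 2 (36.4 to 41.2). Their models met at an inner position of the last exon. Models from position 30623542 in replicate 1, or 30623544 in replicate 2, to the annotated end at 30625271 held 335 and 437 reads, or 20.98% (19.1 to 23.0) and 27.6% (25.5 to 29.9) of the reads of the gene. These models contain no coding base. Models that end at the same position held 159 single-exon reads in replicate 1, from 30621891, and 174 in replicate 2, from 30621537. A further 17 and 26 reads lay in unannotated spliced models that end there. In replicate 1 the position lies 705 bases after the stop codon and 1729 bases before the annotated end, inside the 3′ untranslated region. The tables record annotated ends for known models, so how many Kcnk3-201 reads end at the inner position cannot be read from them. For unannotated models the ends given are those of the model, so the exact ends of single reads are not known either.

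The sequence around these ends is shown because the positions differ in what surrounds them. The 30 bases directly after the inner end, chr5:30623543-30623572 on the plus strand, have A in capitals, and the last 30 bases of the transcript, chr5:30625242-30625271, have AATAAA, the usual polyadenylation signal, in capitals:
Kcnk3 after the inner end: AAAAAAgAAAgAAAgAAAAAAAAAAAAAAg
Kcnk3 last bases: cctAATAAAtgctgtccatggagaccaggc
The first stretch holds 26 A in 30 bases, against a median of 5 over the 3782 windows of that length in Kcnk3-201, and 11 windows reached 26 or more. Neither AATAAA nor ATTAAA occurs in the 50 bases before the inner end. AATAAA occurs 1 time in the transcript, ending 21 bases before the annotated end. Priming of reverse transcription within this stretch was not tested.

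**Figure D2:**
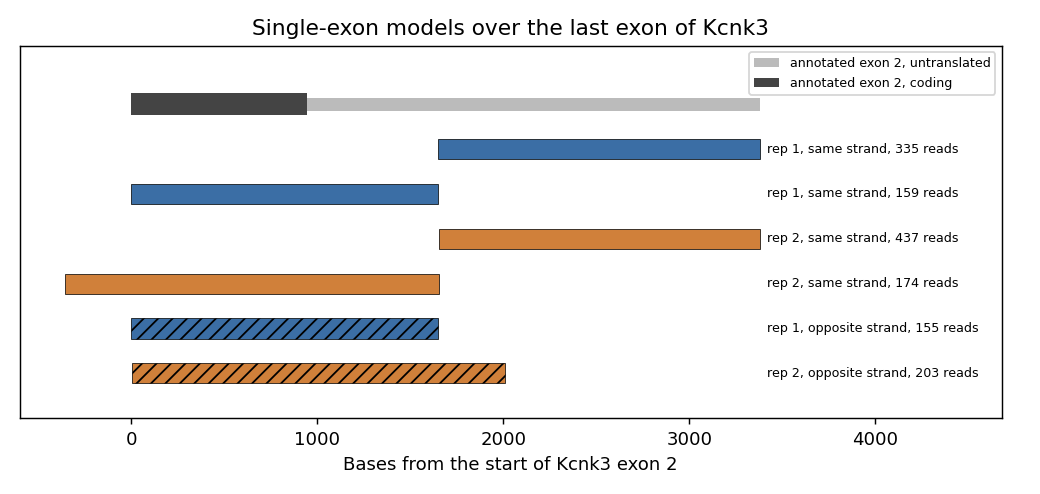
Single-exon models with at least 5 reads over the last exon of Kcnk3, in bases from the start of that exon, by library and strand, under the annotated exon. In both libraries the same-strand models meet 1651 and 1653 bases into the exon, 335 and 437 reads after and 159 and 174 reads before that point, and hatched bars show 155 and 203 reads on the opposite strand.

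The composition of Kcnk3 reads differed between the libraries. Reads in the annotated transcript made up 67.3% in replicate 1 (64.9 to 69.5) and 59.0% in replicate 2 (56.6 to 61.4), a difference that passed Fisher's exact test with Benjamini-Hochberg adjustment over 6033 genes (adjusted p = 6.13e-04). Of all genes tested 0.812% passed, and of the 4 zona glomerulosa genes with enough reads for the test only Kcnk3 did. The share of single-exon reads also differed (adjusted p = 0.00156, Fisher's exact test), in a comparison where 0.663% of all genes passed. When multi-exon reads alone were compared, a check chosen after seeing the data, annotated reads made up 1.07 percentage points less in replicate 2 and the call was lost (adjusted p = 1, Fisher's exact test). The direction was shared with the library as a whole. Single-exon reads made up 11.2% of all reads of annotated genes in replicate 1 and 14.5% in replicate 2, and 47 of the 49 genes called for annotated reads had the lower share in replicate 2. The part of RNA quality in this difference was not tested.

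Kcnk9 was read mostly in its long last exon of 11956 bases. The annotated 2-exon transcript held 7 reads in replicate 1 and 2 reads in replicate 2, and 1 read in replicate 1 began upstream, at 72547696, and had a second splice within the last exon. The remaining reads, 6 of 14 in replicate 1 (42.9%, 21.4 to 67.4) and 12 of 14 in replicate 2 (85.7%, 60.1 to 96.0), were single-exon reads in the 3′ untranslated region. The groups are small and the intervals of these shares overlap, but overlap is no test. With fewer than 20 reads in each library, these single-exon shares were not tested. With a minimum of 10 reads in place of 20, the annotated share gave an adjusted p of 0.870 (Fisher's exact test). The most read of the single-exon models, with 4 reads in replicate 1 and 8 reads in replicate 2, ended at 72506989 and 72506983, before the annotated end at 72501089. A second model ended at 72501872 and 72501874, with 2 and 3 reads. Unlike the inner Kcnk3 end, the first of these Kcnk9 ends follows an AATAAA, shown in capitals in the 30 bases before it (chr15:72506989-72507018, minus strand):
Kcnk9 before the inner end: ctgctttgttgtgAATAAAtaagacatatt
The signal ends 11 bases before the model end, and the 30 bases after it hold 6 A, against a median of 7 over the windows of this transcript.

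Agtr1a encodes the main type 1 angiotensin II receptor of rodents and lies on chromosome 13 from 30336441 to 30382867 on the plus strand. Of its 6 annotated transcripts, Agtr1a-201, with 3 exons and the whole receptor coding region in the last, held 101 reads in replicate 1 and 84 reads in replicate 2. Agtr1a-205 held 1 and 0 reads, and the other 4 held none. Agtr1a-201 took 91.8% of full-splice reads in replicate 1 (85.2 to 95.6) and 92.3% in replicate 2 (85.0 to 96.2), which did not differ past the threshold (adjusted p = 1, Fisher's exact test over 4817 genes, of which 0.125% passed). Unannotated chains inserted an exon of 274 bases (chr13:30379499-30379772) in 4 reads and 1 read, or an exon of 129 bases (chr13:30345643-30345771) in 1 and 3 reads, before the coding exon. Single-exon reads of the last exon numbered 8 and 5. The annotated coding region was whole, by its model, in 97.5% of Agtr1a reads in replicate 1 (92.9 to 99.1) and 91.8% in replicate 2 (84.6 to 95.8). These shares are not like for like. The 8 single-exon reads of replicate 1 count as whole because their model starts at 30380902. The 5 of replicate 2 do not, because theirs starts at 30381133.

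Agtr1b encodes a second form of the receptor, and its coding region is as long as that of Agtr1a, 1080 bases with the stop codon, of which 981 (90.8%) are identical. The longest identical run is 66 bases. The first 90 coding bases of the GENCODE M21 transcripts are given with their 8 differences in capitals, since such close copies can be confused in shorter reads:
Agtr1a: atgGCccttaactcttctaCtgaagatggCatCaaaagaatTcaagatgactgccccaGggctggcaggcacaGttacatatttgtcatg
Agtr1b: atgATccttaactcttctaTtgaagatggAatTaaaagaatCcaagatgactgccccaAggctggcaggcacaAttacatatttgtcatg
They lie at chr13:30380954-30381043 on the plus strand for Agtr1a and at chr3:20316351-20316440 on the minus strand for Agtr1b. The noncoding first exons that spliced reads joined to these coding regions lie on different chromosomes.

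Agtr1b lies on chromosome 3 from 20314473 to 20367177 on the minus strand, and its annotated transcript Agtr1b-201 held 10 reads in each library, while Agtr1b-202 held none. The reads that begin in its first exon had more than a single fate. Of 24 spliced reads with this exon in replicate 1, 10 went directly to the coding exon, 4 reached it through an extra exon and 10 skipped it and continued into exons of Cpb1. In replicate 2, of 20 such reads, 10 went directly, 2 used an extra exon, 7 joined Cpb1 exons and 1 ended elsewhere. Cpb1, the gene of the digestive enzyme carboxypeptidase B, lies 38.7 kb downstream on the same strand. The joined reads made up 41.7% (24.5 to 61.2) and 35.0% (18.1 to 56.7) of reads with the Agtr1b first exon, in 8 chains in replicate 1 and 4 chains in replicate 2. In replicate 1, 1 of these reads ran on into exons of Cpa3, the next gene. All 14 reads assigned to Cpb1 in replicate 1 and all 8 in replicate 2 began in the Agtr1b first exon.

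Assignment of these chains to a gene was not uniform. The chain with an extra exon of 62 bases (chr3:20325350-20325411) between the annotated Agtr1b exons was assigned to Cpb1 in replicate 1, with 1 read, and to Agtr1b in replicate 2, with 2 reads. A longer form of that exon, 236 bases, had 3 reads in replicate 1, also assigned to Cpb1. With these 4 reads counted as Agtr1b, an alternative chosen after seeing the data, the log2 ratio of Agtr1b turned from 0.33 to -0.13, past the threshold in neither case. Spliced reads with the coding exon then numbered 14 in replicate 1 and 12 in replicate 2. Of 1105 spliced reads with the Kcnk3 first exon in replicate 1, 3 (0.271%, 0.0924 to 0.795) were assigned to Slc35f6, a gene 22.7 kb downstream. In replicate 2 it was 3 of 971 (0.309%, 0.105 to 0.904). These reads were counted by assignment, and unlike those of Cpb1 they were not checked for exons of Slc35f6.

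The RefSeq table of promoters (GRCm38.p6) matched 3 of the 6 genes, Agtr1b, Dab2 and Vsnl1, with 5 promoters. The 250 bases before the Agtr1b start, chr3:20367178-20367427 on the minus strand, are given because all these chains begin there, with a TATAAA in capitals:
Agtr1b promoter: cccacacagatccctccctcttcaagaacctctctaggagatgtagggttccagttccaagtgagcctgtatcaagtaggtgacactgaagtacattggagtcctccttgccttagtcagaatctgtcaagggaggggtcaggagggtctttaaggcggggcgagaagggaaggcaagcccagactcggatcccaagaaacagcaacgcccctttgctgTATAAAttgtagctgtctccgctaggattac
This TATAAA starts 31 bases before the RefSeq start, and 12.4% of the 32851 promoters in the table hold TATAAA on either strand in such a window. The other 4 promoters of the set do not. CAAGGTCA, the element named for Nr5a1, AAAGGTCA, named for Nr4a factors, and TGACGTCA, the cyclic AMP response element, were searched on both strands and matched none of the 5. They occur in 1.33%, 1.34% and 1.55% of all promoters, and the first pair share 7 of their letters.

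Dab2 encodes an adaptor that links receptors to clathrin during endocytosis, and in the mouse adrenal it is used as a marker of the zona glomerulosa. It lies on chromosome 15 from 6299788 to 6440712 on the plus strand and has 14 annotated transcripts, of which 5 had reads. A first exon with the 3′ edge of the proximal one, chr15:6386598-6386932, began 275 spliced reads in replicate 1 and 178 in replicate 2. Their starts were not required to match. Dab2-202 starts at 6386598, but Dab2-204, Dab2-203 and Dab2-211 start further in, at 6386748, 6386776 and 6386777. In each library 1 spliced read began in another exon before exon 2. The distal start lies 86.8 kb upstream of 6386598 and had 0 reads in each library. This allows up to 1.09% in replicate 1 and 1.69% in replicate 2 of the number with the proximal exon (3 reads). The bases before 6386598 and before the distal start, chr15:6386498-6386597 and chr15:6299539-6299787, come from the RefSeq promoters. They are set beside each other with CG pairs in capitals and annotated exon bases left off:
Dab2 proximal promoter: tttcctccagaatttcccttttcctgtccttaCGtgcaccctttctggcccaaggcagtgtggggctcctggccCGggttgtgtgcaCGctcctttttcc
Dab2 distal promoter: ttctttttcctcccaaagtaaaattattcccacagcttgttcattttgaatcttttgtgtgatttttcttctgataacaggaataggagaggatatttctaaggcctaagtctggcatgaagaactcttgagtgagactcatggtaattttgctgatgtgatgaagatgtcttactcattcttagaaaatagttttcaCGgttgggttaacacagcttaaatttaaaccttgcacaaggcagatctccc
Over its whole window of 250 bases, exon bases included, the proximal promoter had 60.0% G and C with 17 CG pairs. Most of these pairs lie in the exon bases left off, not in the 100 bases printed. The distal one had 36.8% with 2 CG pairs, and the medians over all promoters in the table were 52.4% and 6.

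Dab2 made the most varied transcripts of the set, with 26 full-splice chains, against 17 for Kcnk3, and its annotated forms with the most reads differed in exons 9 and 10. Exon 9 has 63 bases (chr15:6424635-6424697) and exon 10 has 654 bases (chr15:6429296-6429949). Both are multiples of 3, so each can be left out, removing 21 or 218 codons, without a shift of the reading frame. Skipping of exon 10 gives the known shorter form of the protein, which lacks a middle region with binding sites for clathrin and its adaptors. The 15-exon transcript Dab2-202, with both exons, held 155 reads in replicate 1 and 104 reads in replicate 2. Dab2-203, without exon 10, held 47 and 38 reads. Dab2-204, without exon 9, held 32 and 11 reads, and Dab2-211, without either, held 9 and 3 reads. The junctions that tell the forms apart, with the downstream exon in capitals, and exon 9 itself are:
Dab2 exon 8 to exon 9: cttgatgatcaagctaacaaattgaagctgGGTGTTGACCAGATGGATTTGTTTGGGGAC
Dab2 exon 8 to exon 10: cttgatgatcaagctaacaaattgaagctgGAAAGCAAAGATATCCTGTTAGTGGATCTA
Dab2 exon 9 to exon 11: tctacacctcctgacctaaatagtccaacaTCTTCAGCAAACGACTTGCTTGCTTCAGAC
Dab2 exon 8 to exon 11: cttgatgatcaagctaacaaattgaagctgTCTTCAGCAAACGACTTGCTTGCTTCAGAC
Dab2 exon 9: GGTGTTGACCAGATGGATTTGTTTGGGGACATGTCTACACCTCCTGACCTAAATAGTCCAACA

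Counting every read that spans them, exon 9 was included in 230 of 276 reads in replicate 1 (83.3%, 78.5 to 87.3) and 161 of 178 reads in replicate 2 (90.4%, 85.2 to 94.0). Exon 10 was included in 209 of 272 reads (76.8%, 71.5 to 81.5) and 127 of 173 reads (73.4%, 66.4 to 79.4). The Wilson intervals of the libraries overlap for each exon, but overlap is no test. A difference in the inclusion of either exon between the libraries was not tested. Because a read covers both exons, their combinations were counted directly. Both exons were present in 63.8% of reads in replicate 1 (58.0 to 69.3) and 66.1% in replicate 2 (58.7 to 72.8). Exon 9 alone was present in 19.6% and 24.0%, exon 10 alone in 12.9% and 7.02%, and neither in 3.69% and 2.92%. Exon 9 inclusion was nearly the same with exon 10, 83.2% and 90.4%, as without it, 84.1% and 89.1%, and the intervals overlap widely. The share of Dab2-202 among full-splice reads, 57.0% in replicate 1 (51.0 to 62.7) and 60.1% in replicate 2 (52.7 to 67.1), did not differ past the threshold (adjusted p = 1, Fisher's exact test). No zona glomerulosa gene of the 3 with enough reads passed that test, where 0.125% of 4817 genes did. The unadjusted p was 0.106 for Kcnk3, 0.555 for Dab2 and 1 for Agtr1a, none under 0.05.

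**Figure D3:**
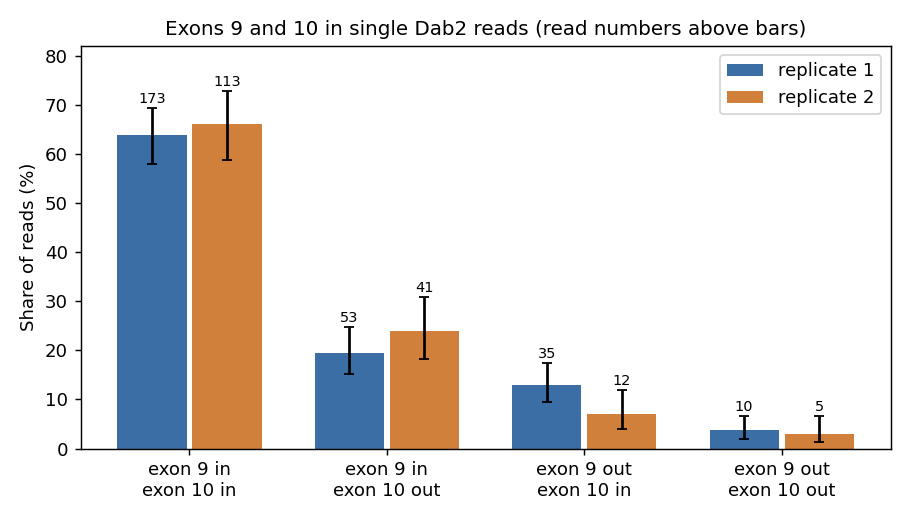
Share of Dab2 reads with each combination of exons 9 and 10, by library, with 95% Wilson intervals and read numbers above the bars. The form with both exons holds 63.8% and 66.1% of reads, and intervals of the libraries overlap in each of the 4 combinations.

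Less frequent Dab2 choices were seen in both libraries. The 27-base exon 7 was included in 277 of 278 reads in replicate 1 and 180 of 184 reads in replicate 2. The annotated 3′ edge of exon 6 was used in 265 of 280 reads (94.6%, 91.4 to 96.7) and 175 of 184 reads (95.1%, 91.0 to 97.4). An edge 4 bases further on, which makes an exon of 85 bases, no multiple of 3, was used in 13 and 5 reads, and other edges in 2 and 4. Of the reads with the edge 4 bases on, chains otherwise like Dab2-202 held 8 and 2 reads and chains like Dab2-203 held 4 and 1 reads. Models that end inside intron 9, at 6427765, the end of the annotated Dab2-208, held 11 and 13 reads. Among them were a chain with a last exon from 6427521, with 4 and 2 reads, and truncated models in which exon 9 runs on into the intron, of which the most read had 3 and 6 reads. A further exon of 115 bases (chr15:6389050-6389164) was included in 4 reads in replicate 1 and 1 read in replicate 2. Single-exon reads of the last exon numbered 11 and 14, and other truncated reads began at inner exons, at most 5 per model.

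Vsnl1 encodes visinin-like 1, a neuronal calcium sensor that is also made in zona glomerulosa cells, and lies on chromosome 12 from 11325242 to 11436613 on the minus strand. Vsnl1-201, with 4 exons, held 17 reads in replicate 1 and 18 reads in replicate 2, and it was the only full-splice chain. Vsnl1-202, which starts at 11435640 and has the same coding length of 576 bases, held none. The others were truncated 3-exon reads without the first exon, 2 and 3 reads, single-exon reads of the last exon, 3 and 0 reads, and 1 further single-exon read in each library. Neuron markers were lower in replicate 2, where the 4 genes summed to 38.6 CPM, against 155 CPM in replicate 1, with none at 0. Vsnl1 itself had 22.3 CPM in replicate 2, against 23.8 CPM in replicate 1, and Kcnk9, also a neuronal gene, 14.2 against 14.5 CPM, with 2 against 8 spliced reads. The part of neurons in these levels was not tested. The bases before its starts, chr12:11436614-11436828 and chr12:11435652-11435901 on the minus strand in the RefSeq promoters, have CG pairs in capitals:
Vsnl1 upstream promoter: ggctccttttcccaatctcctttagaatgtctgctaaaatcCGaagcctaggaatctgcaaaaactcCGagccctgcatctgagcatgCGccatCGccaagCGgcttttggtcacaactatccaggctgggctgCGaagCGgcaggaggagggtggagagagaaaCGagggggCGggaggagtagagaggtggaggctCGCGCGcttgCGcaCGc
Vsnl1 downstream promoter: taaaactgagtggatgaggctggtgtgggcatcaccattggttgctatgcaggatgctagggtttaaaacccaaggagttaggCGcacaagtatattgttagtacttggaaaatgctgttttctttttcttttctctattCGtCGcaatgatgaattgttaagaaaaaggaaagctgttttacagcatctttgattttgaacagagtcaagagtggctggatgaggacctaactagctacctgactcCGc
Over 250 bases the promoter before the used start had 58.0% G and C with 14 CG pairs, and the other had 41.6% with 4.

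**Figure D4:**
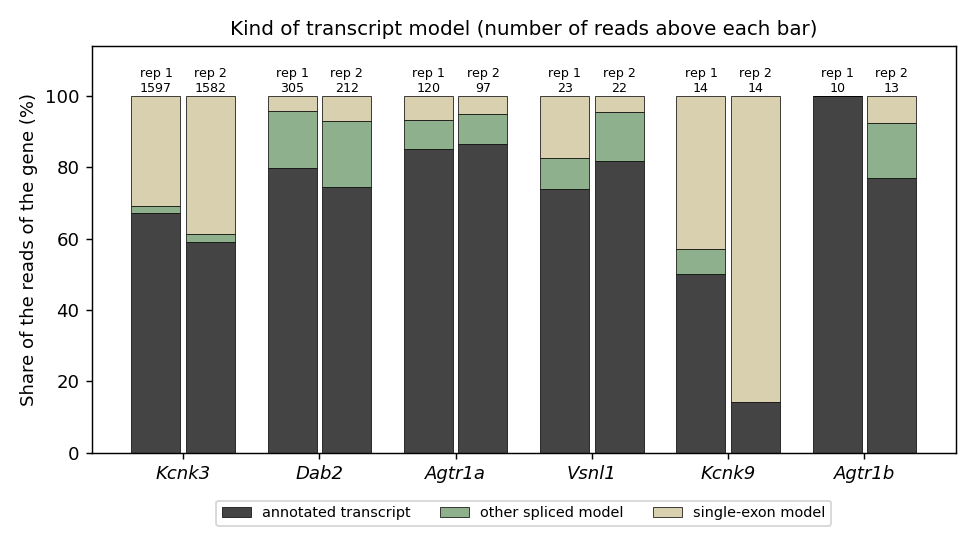
Share of each gene's reads, by library, in annotated transcripts, other spliced models and single-exon models, with read numbers above the bars. Kcnk3 and Kcnk9 have the largest single-exon parts of the 6 genes in each library (31.0% and 38.7%, 42.9% and 85.7%), while Agtr1a and Dab2 stay at or under 7.08%.

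Among 47 other genes of angiotensin and potassium control of aldosterone output, 45 had reads and 37 were tested. Of these 4 passed the threshold with the higher level in replicate 2 and 3 with the higher level in replicate 1, against 4.35% and 4.81% of all 11094 genes. The median log2 ratio of the list was -0.18, beside -0.15 over all genes tested. With TMM scaling the split was 6 to 0, since Cyp11b2, Calm3 and Star were no longer called and Calm2 and Rgs2 were. With median-of-ratios scaling it was 5 to 1. With no minimum of reads it was 3 to 4, since Kcnk5 was no longer called and Ren1 was, and with known models only Calm3 was no longer called.

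In the angiotensin system, Agt, the precursor of angiotensin II, had 13 reads (13.5 CPM) in replicate 1 and 207 reads (210 CPM) in replicate 2, a log2 ratio of 3.91 (adjusted p = 5.37e-43, exact binomial test). Agt is strongly made by liver, and all 8 hepatocyte markers were also higher in replicate 2. Their part in the Agt difference was not tested. Agtrap, which binds the type 1 receptor, stood at 39.0 ± 6.38 CPM, and renin, Ren1, had 9 and 0 reads. Mas1 had no reads in either library.

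In the calcium signal, the calmodulin gene Calm2 stood at 529 ± 29.9 CPM. Calm3, which encodes the same protein, had 366 and 279 reads (adjusted p = 0.00525, exact binomial test). The other 16 tested genes of this role did not pass. Among channels and pumps, the sodium pump subunit gene Atp1b1 stood at 81.6 ± 0.474 CPM, and the potassium channel gene Kcnk5 passed with 6 and 22 reads (adjusted p = 0.0432, exact binomial test). Kcnj5, a potassium channel gene mutated in human aldosterone-producing adenomas, had no reads, and the calcium channel gene Cacna1h had 20 and 16 reads.

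Of the nuclear factors and targets, Nr4a1 had 245 reads (254 CPM) and 364 reads (370 CPM), and Nr4a2 had 15 and 47 reads (adjusted p = 1.79e-04 and 0.00159, exact binomial test). These encode factors that angiotensin II induces and that act on the Cyp11b2 promoter. Cyp11b2, aldosterone synthase, went the other way, with 311 reads (322 CPM) in replicate 1 and 226 reads (229 CPM) in replicate 2 (adjusted p = 0.00238, exact binomial test), a call that was lost with TMM scaling. Star, which brings cholesterol into mitochondria in every cortical zone, stood at 4847 ± 225 CPM (adjusted p = 0.0206, exact binomial test), with a log2 ratio of -0.09.

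**Figure D5:**
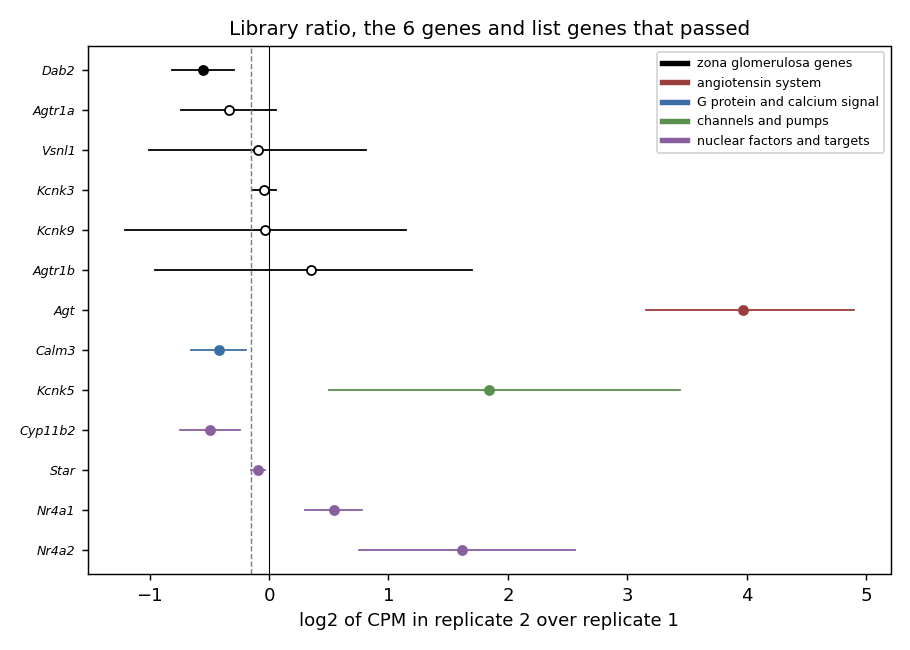
Log2 ratio of CPM in replicate 2 over replicate 1, without added reads, with exact 95% intervals, for the 6 zona glomerulosa genes and, by role, the 7 list genes that passed. Filled points passed the adjusted threshold of 0.05, and the dashed line marks the median of all genes tested at -0.15.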

How the data were processed

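Long-read RNA-seq of adrenal gland was deposited by the authors as raw counts of reads for each transcript model, 1 table per library, with a matching annotation that gives each model's exons. Per the file headers, the models were made with TALON on mm10 and classed against GENCODE M21. For the aligner, the TALON version and any model filter, a name is not given in the sources used here. Counts were summed per annotated gene, with spike-ins kept out of library sizes (964679 reads in replicate 1 and 984958 in replicate 2). CPM were computed from these sums. The level test was an exact binomial test, two-sided, of every gene with 10 or more reads in the libraries together. Genes with at least 20 full-splice reads per library (for the top intron chain), or 20 reads per library (for annotated against other reads), were tested with Fisher's exact test. All p-values were Benjamini-Hochberg adjusted over all genes tested, with a threshold of 0.05. Log2 ratios in the text had 0.5 reads added to each library. Shares have Wilson, levels Poisson and ratios Clopper-Pearson intervals at 95%. Reads carry no molecular identifiers in the counts, so intervals, limits of 3 reads and p-values cover counting error only.

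The 6 genes, the list of 47 genes and the markers were chosen with earlier results of these data known. Named from the list were the genes past the threshold, Cyp11b2 and the 2 highest by mean CPM of each role, of which some are not reported here. Named from the models were full-splice chains with at least 3 reads over both libraries and the 3 most read other models of each gene. Mas1, Kcnj5, Ren1 and Cacna1h were named after their values were seen. Tests were tested on data simulated with counting error only, with changes put into genes of at least 50 reads over both libraries. Among 11038 genes with 200 changed, the binomial test called 22.4% of changes by 1.5 times, 67.2% by 2 times and 97.0% by 4 times. Kcnk9, Agtr1b and Vsnl1 had fewer than 50 reads, so these shares do not cover them. Python 3.11.15, SciPy 1.17.1, pandas 2.3.3 and edgeR 4.0.16 (TMM factors) were used. Promoters came from RefSeq and exons from GENCODE M21 transcripts.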

Additional observations from a re-analysis of the deposited data

Results flagged for a closer look

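Reads on the strand opposite to a gene are assigned elsewhere and enter none of the levels above. Opposite to Kcnk3 there were 158 reads in replicate 1 and 206 in replicate 2, of which 155 and 203 lay in a single-exon model over the last exon of Kcnk3. Opposite to Agtr1a there were 29 and 33 reads, of which 26 and 31 lay in a model of the first intron, chr13:30337590-30337691, outside its annotated exons. Opposite to Dab2 there were 18 and 24 reads, of which 9 and 7 lay in a model at chr15:6392501-6394696. Kcnk9 had 1 such read in each library, Agtr1b had 3 and 0, and Vsnl1 had none. These counts were picked out because they lie above 3 reads in data that no comparison used. Whether the labelled strand of these single-exon reads is right was not tested.

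The reads that joined the Agtr1b first exon to Cpb1 exons, 10 in replicate 1 and 7 in replicate 2, were picked out for the same reason, since the tables count them for Cpb1.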

How the results depend on the processing

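No paired analysis was possible because the series has a single group. Of 127 values under other settings, 112 kept their direction and their side of the threshold or their size. Both numbers include the values left when a replicate was dropped. These were set against the SD of the same 2 libraries, so they could only count as kept and say nothing about stability. The Dab2 call remained under all 9 settings and was the only one of the set in each, with 5 genes tested with known models only, 3 with a minimum of 50 reads and 6 otherwise. Those that changed only the minimum of reads or the reads of Agtr1b could not move the Dab2 ratio. Kcnk9 moved to -1.73 with multi-exon models only. Directions of genes that passed in no setting turned with the scaling: with TMM the log2 ratio was 0.11 for Kcnk3, 0.13 for Kcnk9 and 0.065 for Vsnl1, and with median-of-ratios factors it was 0.071, 0.085 and 0.022. Vsnl1 turned to 0.11 with known models only and to 0.17 with multi-exon models only, Kcnk9 to 0.00462 without hepatocyte genes and Apoe in the totals, and Agtr1b to -0.13 with the reads assigned to Cpb1. The Agtr1a top share turned to -0.51 points with truncated reads added. Among multi-exon reads 0 genes of the set were called for annotated reads, against 1 of all reads. Leaving out a replicate leaves the other library's value, with no test, so that levels range over the 2 values given. Low read numbers limited Agtr1b, Kcnk9 and Vsnl1, whose ratio intervals were the widest of the 6 genes.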
